A study of Mus musculus with 18 samples.

Results

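Collagen and laminin genes were followed through 6 RNA-Seq libraries from the granule cell layer of the ventral dentate gyrus of adult male mice, 2 libraries each from WT, F1 and F2 males. They were chosen by symbol: every gene in the count tables whose name begins as a collagen chain (Col, a number, a and a number) or as a laminin chain (Lama, Lamb or Lamc and a number). This rule found 55 of the 34620 genes listed. It caught 1 gene that encodes neither protein, Col4a3bp, a ceramide transfer protein named after a collagen chain it binds, which left 43 collagen and 11 laminin chains. Of the 55 genes, 53 had enough counts to be tested. Col10a1, with between 1 and 4 counts per library, and Col4a4, with between 6 and 15, did not.

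All mice were outbred Swiss Webster males, aged 8 to 12 weeks, and genetically wild type for the serotonin 1A receptor (5-HT1A). F1 males were born to parents heterozygous for a deletion of that receptor. F2 males were sons of F1 females and WT males, so that their mother was wild type and their maternal grandmother heterozygous. WT males came from a lineage bred in parallel. The layer was microdissected from sections, animals came from at least 3 litters, and the number of animals behind a library was not given. Tests therefore measure the spread between these libraries, and both comparisons with WT share its 2 libraries.

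Collagens are trimers of chains built from a repeat of 3 residues, in which glycine comes first. Fibrillar collagens form the cables of connective tissue, while type IV collagens and laminins form the networks of basement membranes, the thin sheets that in brain tissue surround blood vessels and line the pial surface. Laminins are trimers of an α, a β and a γ chain and bind integrins and dystroglycan on cells. Neurons make some collagens too, among them transmembrane chains and chains with interrupted helices.

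The repeat is visible in the genes, and 3 coding exons are shown because exon structure recurs beside the results below. In the lines that follow, each glycine codon (GGN) at the start of a triplet is in capitals. The exon of Col5a2, a fibrillar chain that was lower in F1 and F2, lies at chr1:45491737-45491790 on the minus strand of mm9, and that of Col1a2, a fibrillar chain that did not pass the test, at chr6:4465481-4465534 on the plus strand. The exon of Col4a2, a basement membrane chain, lies at chr8:11398662-11398796 on the plus strand. Each is the first coding exon of the longest protein-coding transcript that starts in frame, is at least 54 bases long and holds glycine triplets alone.
Col5a2, coding exon 6: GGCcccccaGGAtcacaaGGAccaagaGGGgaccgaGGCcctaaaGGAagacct
Col1a2, coding exon 8: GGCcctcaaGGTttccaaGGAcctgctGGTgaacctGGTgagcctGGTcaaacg
Col4a2, coding exon 4: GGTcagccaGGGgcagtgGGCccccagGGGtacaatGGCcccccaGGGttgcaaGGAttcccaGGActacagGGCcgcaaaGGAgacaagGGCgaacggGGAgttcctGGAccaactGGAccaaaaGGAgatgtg
The fibrillar exons hold 54 bases, or 6 triplets, and the type IV exon holds 135 bases, or 15 triplets. Exons of 54 bases made up 305 of the 649 coding exons (47.0%) of the 11 fibrillar genes, 12 of 297 (4.04%) in the 6 type IV genes, none of 486 in the 11 laminin genes and 0.424% of the coding exons of all other protein-coding genes.

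Libraries held between 26358165 and 33727936 reads counted on genes, and values are CPM, a gene's counts scaled to a library size set by TMM normalization. The members' counts summed to 32904 and 27188 reads (WT), 19727 and 19617 (F1) and 19530 and 18779 (F2). The tissue label was read beside its markers: 7 granule neuron markers summed to 1031 and 1047 CPM (WT), 933 and 1115 CPM (F1) and 1249 and 1179 CPM (F2), led by Prox1 and Calb1. Markers of other cells were present too. In WT, astrocyte markers summed to 2413 and 2642 CPM, oligodendrocyte markers to 1111 and 2014 CPM and interneuron markers to 889 and 938 CPM. These sums do not measure the purity of the layer. Of the choroid plexus markers, Ttr was near the floor, with between 5 and 34 counts per library, and Folr1, Kcne2 and Clic6 had between 2 and 9 counts. Others on that list were not all as low: Kl had between 386 and 501 counts, Prlr 61 to 104, Otx2 9 to 33 and Aqp1 4 to 21. Reads that fell on no gene made up 17.7% and 20.7% (WT), 13.8% and 12.2% (F1) and 13.9% and 17.4% (F2) of a library's uniquely aligned reads. Their part in the results below was not tested.

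In F1, 20 of the 53 tested members were lower than in WT and 0 were higher, at q under 0.01 (q is the Benjamini-Hochberg adjusted p of edgeR's exact test over 17421 genes). Of all tested genes, 8.54% were lower and 3.77% higher in F1. In F2, 18 members were lower and 0 higher, against 8.1% lower and 3.86% higher of all tested genes. Lower in both were 17 members, against 6.07% of all tested genes. All 4 F1 and F2 libraries lay below both WT libraries for 26 members, against 23.7% of all tested genes. The median log2 fold change was -0.63 in F1 and -0.39 in F2 over the tested members, and 0.0094 and -0.00035 over all tested genes. By edgeR's quasi-likelihood test, 16 members were called in F1 and 17 in F2, all lower. At an unadjusted p under 0.05 by the exact test, 27 members were lower in F1 and 3 were higher (Col4a3bp, Lama2 and Lamc3). In F2, 22 were lower and 5 were higher (Col25a1, Col4a3bp, Col8a1, Lamb2 and Lamc3). The share of all genes at that threshold was not counted. A likelihood-ratio test corrected for exon structure, chosen after seeing the data and given further on, called 14 lower and 3 higher in F1 and 16 lower and 2 higher in F2. Of all 17421 genes, that corrected test called 2395 in F1, 1361 of them lower, and 2186 in F2, 1307 of them lower. In bulk tissue, fewer cells of a type and less RNA per cell cannot be told apart.

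Between F2 and F1, 0 of the 53 members differed by the exact test (lower in 0.436% and higher in 0.304% of all tested genes), and none did by the quasi-likelihood test or by DESeq2. At an unadjusted p under 0.05 by the exact test, 11 members differed, 2 of them lower and 9 higher in F2. The share of all genes was not counted for that threshold or for the fit that follows. Leaving out F1 replicate 2 raised the number called to 5, among them Col11a1, Col1a1, Col6a1 and Lama1.

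Lower members were found in collagens of the basement membrane, of fibrils and of several minor types, whereas 1 of 11 laminin chains was called, in F1 alone. That is 9.09% of the laminins in F1, near the 8.54% of all tested genes that were lower there. In F2 it is 0%, against 8.1% of all tested genes. Of the 41 tested collagen chains, 19 were lower in F1 and 18 in F2, and their median log2 fold change was -0.78 in F1 and -0.72 in F2. Over the 11 laminin chains the median was -0.20 in F1 and 0.23 in F2. The difference between the families was not tested.

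**Figure D1:**
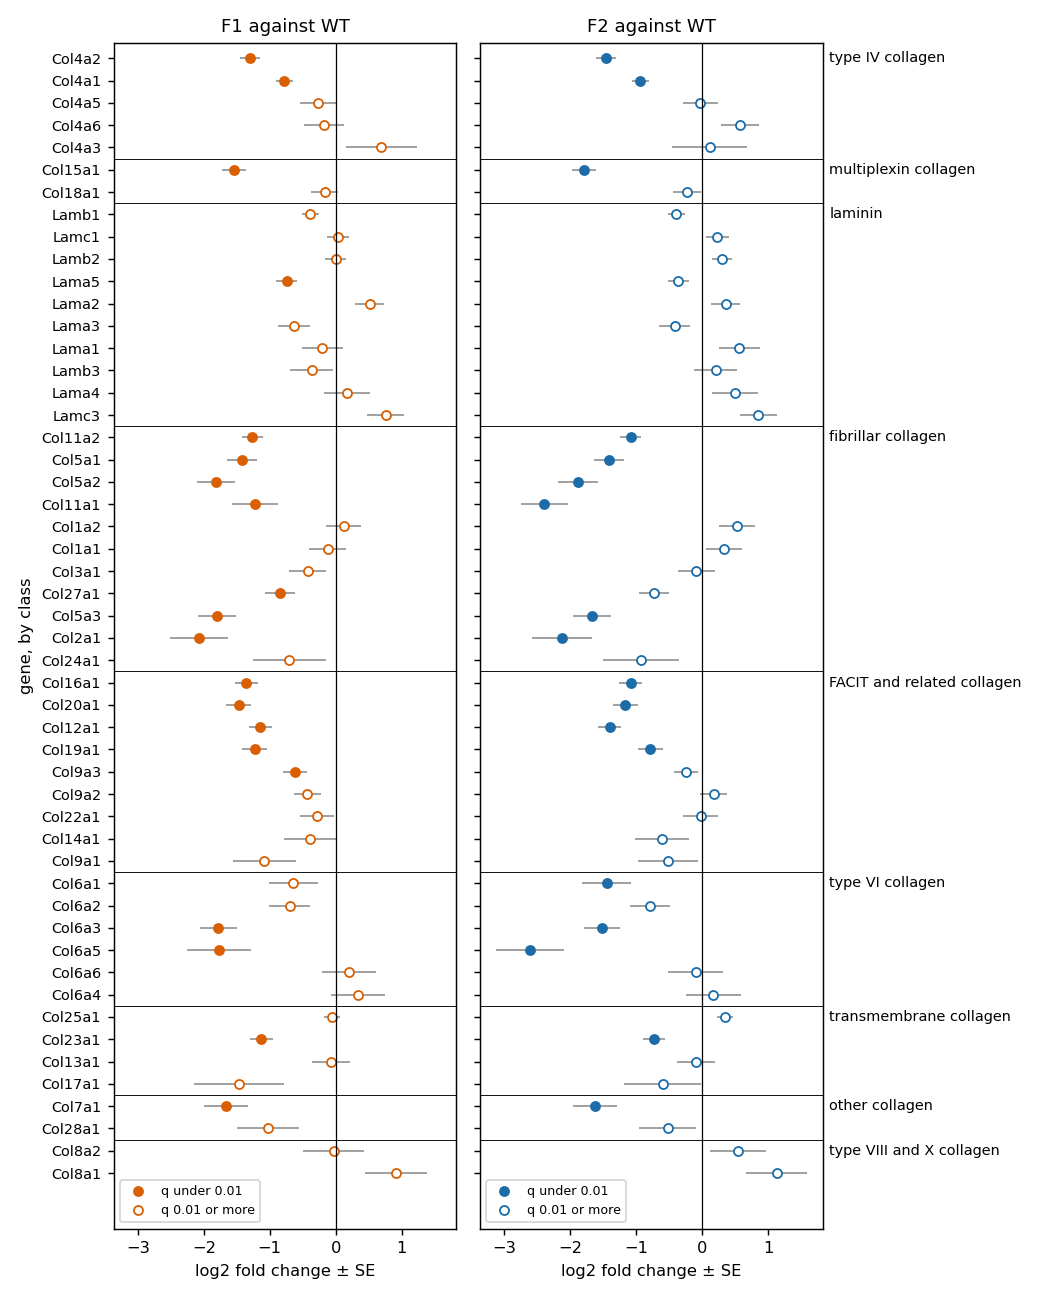
Log2 fold change of the tested collagen and laminin chains (1 is not drawn) in F1 (left) and F2 (right) against WT, with its standard error as a bar, in rows by class. Filled points have q under 0.01. Filled points all lie left of 0, and all but 1 of the laminin points are open.

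Among type IV collagens, Col4a1 and Col4a2, whose products assemble into the network of nearly all basement membranes, were lower in F1 and F2. Col4a2 had 121 and 101 CPM (WT), 51.7 and 38.9 CPM (F1) and 37.98 and 43.1 CPM (F2). All 4 F1 and F2 libraries lay far below both WT libraries. Log2 fold changes of Col4a2 were -1.29 ± 0.15 (q = 1.16e-14) in F1 and -1.46 ± 0.15 (q = 6.58e-18) in F2, each with its standard error. Its neighbour Col4a1 had 55.9 and 60.5 CPM (WT), 35.6 and 32.2 CPM (F1) and 30.7 and 30.1 CPM (F2). WT did not overlap the other groups, and the log2 fold changes of Col4a1 were -0.78 ± 0.13 (q = 4.97e-08) in F1 and -0.94 ± 0.13 (q = 3.44e-11) in F2.

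These 2 genes lie head to head on chromosome 8, Col4a2 at chr8:11312805-11449287 on the plus strand and Col4a1 at chr8:11198423-11312826 on the minus strand (mm9), and their annotated starts share 22 bases. The shared stretch, chr8:11312805-11312826, is shown on the plus strand because both transcripts begin in it.
Col4a1 and Col4a2, shared start: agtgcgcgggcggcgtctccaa
Per kilobase of exon, Col4a1 stood at 0.446 and 0.583 of the level of Col4a2 in WT, at 0.668 and 0.802 in F1 and at 0.784 and 0.678 in F2. All 4 ratios in F1 and F2 lay above both in WT. The difference in this ratio was not tested.

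The tissue-restricted type IV chains did not pass the test. Col4a5, an X-linked chain of the kidney glomerular network, had 4.32 and 6.51 CPM (WT), 3.73 and 5.25 CPM (F1) and 5.94 and 4.68 CPM (F2), and its groups overlapped. Col4a6 had 1.44 and 1.48 CPM (WT), 1.16 and 1.42 CPM (F1) and 2.32 and 2.04 CPM (F2). Here F1 lay below and F2 above WT, and the log2 fold changes of Col4a6 were -0.18 ± 0.31 (q = 0.784) in F1 and 0.58 ± 0.29 (q = 0.155) in F2. Col4a3 stayed under 0.5 CPM in every library.

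The multiplexins, collagens of the basement membrane zone that carry endostatin-like domains, divided. Col15a1 (chr4:47221033-47326039 in mm9, plus strand) had 19.4 and 21.4 CPM (WT), 7.03 and 6.93 CPM (F1) and 5.50 and 6.27 CPM (F2). The groups stood clear of WT by more than any gap between replicates. The log2 ratios to WT were -1.55 ± 0.18 (q = 2.96e-15) in F1 and -1.79 ± 0.18 (q = 3.64e-19) in F2, which made it the member with the smallest q in F1 and in F2. The other multiplexin, Col18a1, had 7.47 and 7.64 CPM (WT), 6.93 and 6.51 CPM (F1) and 7.25 and 5.64 CPM (F2). It lay slightly below WT in every library, with log2 fold changes of -0.17 ± 0.21 (q = 0.624) in F1 and -0.23 ± 0.21 (q = 0.494) in F2.

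Laminin chains summed to 153 and 151 CPM (WT), 116 and 150.04 CPM (F1) and 153 and 148 CPM (F2), and the lowest sum was that of F1 replicate 1. Lama5 (chr2:179911078-179960564 in mm9, minus strand), an α chain of vessel walls, was the chain that passed the test: it had 16.6 and 16.7 CPM (WT), 9.84 and 10.01 CPM (F1) and 12.8 and 13.1 CPM (F2). Both F2 libraries lay between F1 and WT, and the log2 fold changes of Lama5 were -0.74 ± 0.16 (q = 0.000126) in F1 and -0.36 ± 0.16 (q = 0.0999) in F2. Lamb1, the most abundant laminin, had 63.2 and 58.5 CPM (WT), 42.9 and 50.4 CPM (F1) and 47.2 and 45.6 CPM (F2). It was below WT in all 4 libraries, yet its log2 fold changes of -0.38 ± 0.13 (q = 0.0183) in F1 and -0.39 ± 0.13 (q = 0.0162) in F2 missed the threshold. Lamc1, the γ chain shared by most laminins, had 27.6 and 25.4 CPM (WT), 22.6 and 31.8 CPM (F1) and 30.7 and 31.6 CPM (F2), and F1 straddled WT. Lamb2, a β chain of vessels and synapses, had 20.8 and 20.6 CPM (WT), 18.8 and 22.6 CPM (F1) and 27.1 and 24.02 CPM (F2). Against WT, log2 fold changes were 0.004 ± 0.16 (q = 1) in F1 and 0.30 ± 0.15 (q = 0.154) in F2.

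The remaining α chains differed in sign. Lama2, a chain of the astrocytic basement membrane, had 6.32 and 7.36 CPM (WT), 8.09 and 11.5 CPM (F1) and 8.60 and 8.95 CPM (F2), with log2 fold changes of 0.52 ± 0.22 (q = 0.077) in F1 and 0.36 ± 0.22 (q = 0.263) in F2. Lama4, an endothelial chain, had 2.12 and 4.01 CPM (WT), 2.31 and 4.53 CPM (F1) and 4.22 and 4.38 CPM (F2), and WT replicate 1 and F1 replicate 1 were the low libraries. Lamc3 had 2.68 and 3.03 CPM (WT), 3.63 and 6.02 CPM (F1) and 5.50 and 4.79 CPM (F2). It lay above WT in all 4 libraries, with log2 fold changes of 0.76 ± 0.28 (q = 0.0339) in F1 and 0.85 ± 0.28 (q = 0.0162) in F2. Lama3 and Lamb3, chains found in epithelia, ranged from 2.28 to 4.52 CPM, and Lama1 from 2.05 to 5.98 CPM, and none of these passed the test. Of these, Lama3 lay below WT in all 4 libraries, with log2 fold changes of -0.63 ± 0.24 (q = 0.0469) in F1 and -0.41 ± 0.24 (q = 0.229) in F2.

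**Figure D2:**
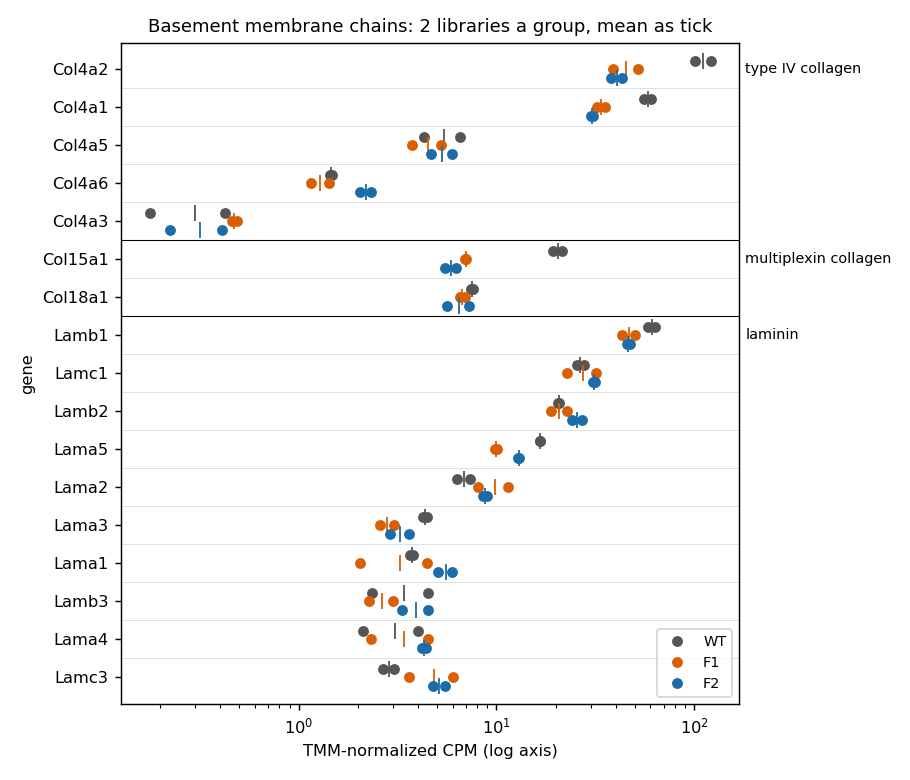
CPM on a log axis of 17 of the 18 tested basement membrane chains in each library (points; 2 libraries a group, group mean as a tick), by class. WT points lie apart to the right for Col4a2, Col4a1, Col15a1, Lamb1, Lama5 and Lama3, and narrowly so for Col18a1. For Lamc1 and Lama4 the groups overlap.

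Of 11 fibrillar chains, 7 were lower in F1 and 6 in F2. Their summed level was 193 and 195 CPM (WT), 101 and 92.3 CPM (F1) and 108 and 106 CPM (F2). The 7 were chains of types II, V, XI and XXVII, whereas Col1a1, Col1a2 and Col3a1, the main chains of connective tissue fibrils, did not pass the test. Col11a2 (chr17:34176382-34203630 in mm9, plus strand), a minor fibril chain known from cartilage and the most abundant fibrillar member, had 54.6 and 54.2 CPM (WT), 24.8 and 20.5 CPM (F1) and 22.2 and 29.2 CPM (F2). Its log2 fold changes were -1.27 ± 0.16 (q = 2.8e-13) in F1 and -1.08 ± 0.16 (q = 8.4e-10) in F2. Its partner Col11a1 had 20.5 and 18.02 CPM (WT), 12.2 and 4.31 CPM (F1) and 2.99 and 4.34 CPM (F2). F1 replicate 1 lay between WT and the other 3 libraries, and the log2 fold changes of Col11a1 were -1.22 ± 0.35 (q = 0.00571) in F1 and -2.39 ± 0.36 (q = 1.57e-08) in F2. The call in F1 was lost in the quasi-likelihood test, in DESeq2 and without WT replicate 1, WT replicate 2 or F1 replicate 2.

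The type V chains, which set the diameter of type I fibrils, fell together. Col5a1 (chr2:27741945-27895034 in mm9, plus strand) had 49.1 and 40.5 CPM (WT), 21.8 and 11.7 CPM (F1) and 15.5 and 18.2 CPM (F2). The log2 ratios to WT were -1.42 ± 0.23 (q = 8.77e-08) in F1 and -1.41 ± 0.23 (q = 1.26e-07) in F2. Col5a2 had 18.1 and 20.5 CPM (WT), 7.72 and 3.27 CPM (F1) and 5.35 and 5.12 CPM (F2). F1 replicate 2 was the lowest library for both, and the log2 fold changes of Col5a2 were -1.81 ± 0.29 (q = 1.14e-07) in F1 and -1.88 ± 0.30 (q = 4.36e-08) in F2. Col5a3 had 6.85 and 5.25 CPM (WT), 2.18 and 1.30 CPM (F1) and 1.68 and 2.12 CPM (F2), with log2 fold changes of -1.80 ± 0.29 (q = 5.23e-08) in F1 and -1.67 ± 0.29 (q = 7.49e-07) in F2. None of the 4 F1 and F2 libraries reached WT for any of the 3 chains.

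Col2a1, the cartilage fibril chain, had 1.68 and 3.73 CPM (WT), 0.759 and 0.518 CPM (F1) and 0.523 and 0.705 CPM (F2). The WT libraries differed from each other, and the log2 fold changes were -2.07 ± 0.44 (q = 6.61e-05) in F1 and -2.12 ± 0.45 (q = 7.18e-05) in F2. Leaving out WT replicate 2 ended both calls of Col2a1, F1 replicate 2 that in F1 and F2 replicate 1 that in F2. Col27a1, a chain of developing cartilage, had 9.77 and 8.94 CPM (WT), 6.14 and 4.27 CPM (F1) and 5.16 and 6.16 CPM (F2). It was called in F1 alone, with log2 fold changes of -0.85 ± 0.23 (q = 0.0027) in F1 and -0.72 ± 0.23 (q = 0.013) in F2, and that call was lost without WT replicate 1, WT replicate 2 or F1 replicate 2, and by the quasi-likelihood test (q = 0.0167). Col24a1 stayed under 1 CPM.

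Types I and III followed a different order of libraries. Col1a1 had 10.4 and 12.004 CPM (WT), 6.87 and 13.7 CPM (F1) and 16.3 and 12.1 CPM (F2). Col1a2 had 13.03 and 19.3 CPM (WT), 12.2 and 22.8 CPM (F1) and 26.96 and 19.7 CPM (F2). Col3a1 had 8.38 and 12.2 CPM (WT), 5.58 and 9.75 CPM (F1) and 11.3 and 8.02 CPM (F2). In each of the 3, F1 replicate 1 was the lowest library. Log2 fold changes were -0.12 ± 0.28 (q = 0.813) in F1 and 0.34 ± 0.27 (q = 0.431) in F2 for Col1a1, 0.12 ± 0.27 (q = 0.817) in F1 and 0.53 ± 0.27 (q = 0.157) in F2 for Col1a2 and -0.42 ± 0.28 (q = 0.312) in F1 and -0.09 ± 0.28 (q = 0.884) in F2 for Col3a1. The 10 fibroblast and meninges markers summed to 196 and 219 CPM (WT), 119 and 227 CPM (F1) and 337 and 215 CPM (F2). That sum was also lowest in F1 replicate 1. It was highest in F2 replicate 1, as were Col1a1 and Col1a2, whereas Col3a1 was highest in WT replicate 2. Of those 10 markers, 2 were lower in F1 (8.54% of all tested genes) and 1 was higher in F2 (3.86% of all tested genes), and all 10 were detected in every library. Their part in these values was not tested.

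Promoters of Col5a1 and Col1a2 are shown because their genes parted in this way. Each window is the 250 bases before the annotated start (RefSeq, GRCm38.p6), at chr2:27886175-27886424 for Col5a1 and chr6:4505368-4505617 for Col1a2, both on the plus strand. Capitals mark the GC box GGGCGG and the CCAAT box CCAAT on either strand (CCGCCC and ATTGG on the other). Matches of the 2 motifs share no letters in these windows.
Col5a1, promoter: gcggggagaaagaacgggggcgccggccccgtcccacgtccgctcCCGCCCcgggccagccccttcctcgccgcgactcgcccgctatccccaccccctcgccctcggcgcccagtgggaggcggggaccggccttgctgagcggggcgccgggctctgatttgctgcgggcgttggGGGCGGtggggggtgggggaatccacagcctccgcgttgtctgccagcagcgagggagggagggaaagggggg
Col1a2, promoter: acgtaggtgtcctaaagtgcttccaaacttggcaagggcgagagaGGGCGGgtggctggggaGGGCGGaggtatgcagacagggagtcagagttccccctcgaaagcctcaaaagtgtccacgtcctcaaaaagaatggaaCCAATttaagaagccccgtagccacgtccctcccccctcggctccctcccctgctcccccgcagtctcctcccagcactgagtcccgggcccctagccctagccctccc
Both windows hold 2 GC boxes, and that of Col1a2 also holds a CCAAT box. A RefSeq window matched 40 of the 55 members by symbol. A GC box was found in 23 of the 40 (57.5%), against 32.9% of all promoters and 56.6% of those of tested genes. It was found in 9 of the 14 matched members lower in both F1 and F2 and in 14 of the other 26. A CCAAT box was found in 13 of the 40 (32.5%), against 34.5% of all promoters and 35.9% of those of tested genes. It was found in 6 of the 14 members lower in both (42.9%) and in 7 of the other 26 (26.9%). Differences between these sets were not tested for either box.

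**Figure D3:**
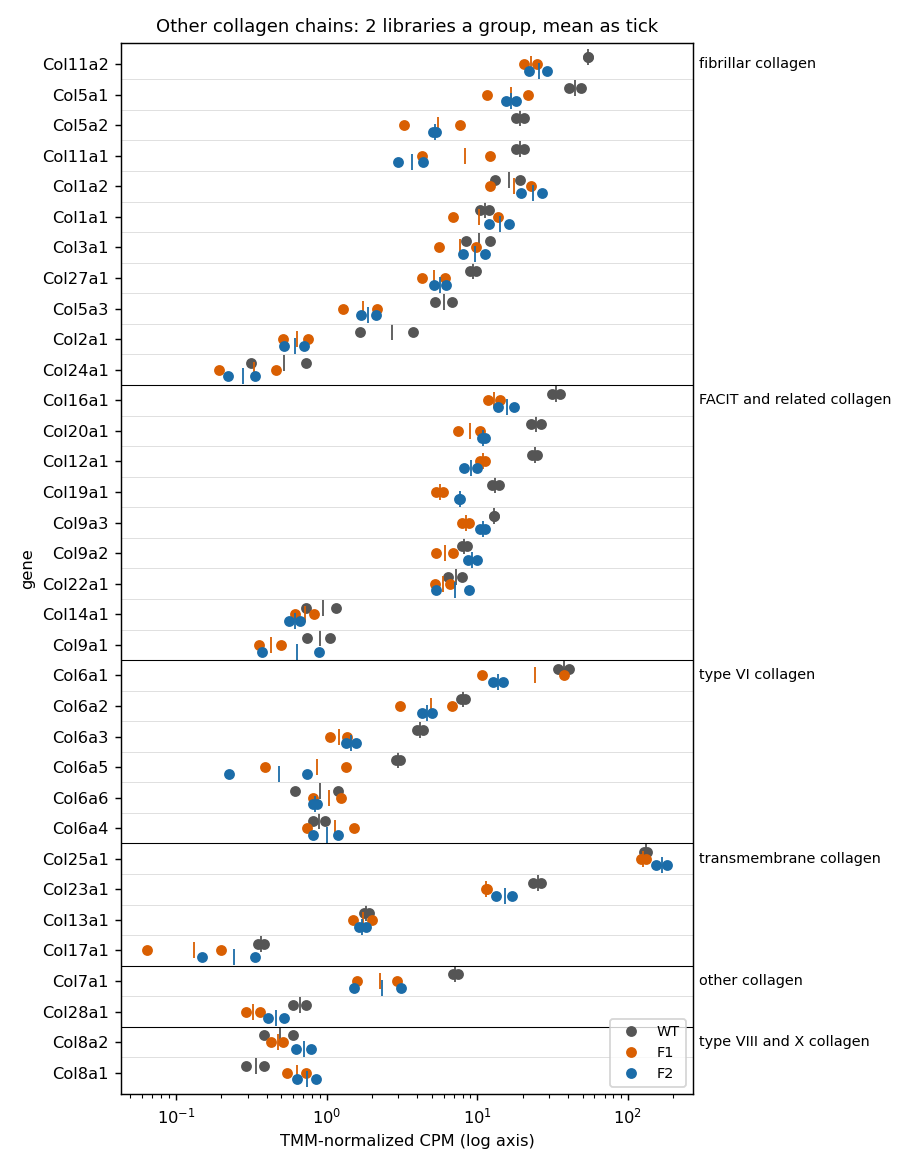
CPM on a log axis of the 34 tested collagen chains outside the basement membrane in each library (points; 2 libraries a group, group mean as a tick), by class. WT points stand apart to the right for most fibrillar and FACIT chains, but not for Col1a1, Col1a2, Col3a1 or Col25a1.

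FACIT collagens, which have interrupted helices and sit on the surface of fibrils, were lower for 5 of 9 chains in F1 and 4 in F2. Their summed level was 123 and 127 CPM (WT), 63.01 and 56.998 CPM (F1) and 69.2 and 74.8 CPM (F2). Col16a1 (chr4:129725084-129776527 in mm9, plus strand) had 35.2 and 31.2 CPM (WT), 14.1 and 11.9 CPM (F1) and 13.8 and 17.6 CPM (F2). Against WT, log2 fold changes were -1.35 ± 0.17 (q = 9.55e-13) in F1 and -1.08 ± 0.17 (q = 2.42e-08) in F2. Col20a1 had 22.6 and 26.7 CPM (WT), 10.4 and 7.42 CPM (F1) and 10.7 and 11.3 CPM (F2), with log2 fold changes of -1.47 ± 0.19 (q = 4.52e-12) in F1 and -1.16 ± 0.19 (q = 8.52e-08) in F2. The groups did not overlap WT for either chain. Col12a1, a fibril-bridging chain of tendon and bone surfaces, had 23.2 and 24.9 CPM (WT), 11.3 and 10.5 CPM (F1) and 8.23 and 9.99 CPM (F2). Its log2 fold changes were -1.14 ± 0.17 (q = 1.51e-09) in F1 and -1.40 ± 0.17 (q = 1.55e-13) in F2.

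Col19a1, which hippocampal interneurons express and which takes part in the formation of inhibitory synapses, had 12.5 and 13.9 CPM (WT), 5.94 and 5.34 CPM (F1) and 7.63 and 7.72 CPM (F2). Both F2 libraries lay between F1 and WT, and its log2 fold changes were -1.23 ± 0.19 (q = 9.38e-09) in F1 and -0.78 ± 0.19 (q = 0.000511) in F2. The call in F2 was lost without WT replicate 2 or either F2 library. The summed level of 8 interneuron markers was 889 and 938 CPM (WT), 1167 and 887 CPM (F1) and 946 and 1055 CPM (F2). None of them was lower in F1 or F2, and 1 was higher in F1 and 3 in F2. Of all tested genes, 8.54% were lower and 3.77% higher in F1, and 8.1% and 3.86% in F2. The part of these markers in the fall of Col19a1 was not tested. Col9a3, a chain of the type IX collagen that coats cartilage fibrils, had 12.9 and 12.9 CPM (WT), 7.92 and 8.87 CPM (F1) and 10.5 and 11.3 CPM (F2). It was called in F1 alone, with log2 fold changes of -0.62 ± 0.18 (q = 0.00507) in F1 and -0.24 ± 0.18 (q = 0.359) in F2, and leaving out any 1 of the 6 libraries ended the call, as did the quasi-likelihood test and DESeq2. Its partner Col9a2 had 8.56 and 7.89 CPM (WT), 5.35 and 6.87 CPM (F1) and 8.67 and 9.91 CPM (F2) and was not called, and Col9a1, Col14a1 and Col22a1 were not called either.

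Type VI collagen, which forms beaded filaments around cells, was lower for 2 of 6 chains in F1 and 3 in F2. Col6a1 (chr10:76171537-76188913 in mm9, minus strand) had 40.5 and 34.6 CPM (WT), 37.4 and 10.7 CPM (F1) and 12.7 and 14.9 CPM (F2). F1 replicate 1 was within the WT range, unlike the other 3 libraries, and the log2 fold changes of Col6a1 were -0.64 ± 0.37 (q = 0.227) in F1 and -1.44 ± 0.37 (q = 0.00208) in F2. Without F1 replicate 1, Col6a1 was called in F1 as well, and its call in F2 was lost without WT replicate 1 or either F2 library. That call was also lost by the quasi-likelihood test (q = 0.0296) and by DESeq2 (q = 0.145). Col6a3 had 3.97 and 4.37 CPM (WT), 1.06 and 1.36 CPM (F1) and 1.35 and 1.56 CPM (F2), and its log2 fold changes were -1.78 ± 0.28 (q = 1.15e-08) in F1 and -1.52 ± 0.27 (q = 1.65e-06) in F2. Col6a5 had 3.06 and 2.89 CPM (WT), 1.35 and 0.389 CPM (F1) and 0.224 and 0.742 CPM (F2), with log2 fold changes of -1.77 ± 0.48 (q = 0.00383) in F1 and -2.61 ± 0.52 (q = 2.18e-05) in F2. Its call in F1 was lost without either WT library or F1 replicate 2, and that in F2 without F2 replicate 1. By the quasi-likelihood test (q = 0.028) and by DESeq2 (q = 0.016), Col6a5 was not called in F1. Col6a2, the obligate partner of Col6a1, had 7.80 and 8.24 CPM (WT), 6.83 and 3.08 CPM (F1) and 4.30 and 4.97 CPM (F2) and log2 fold changes of -0.69 ± 0.31 (q = 0.0914) in F1 and -0.79 ± 0.31 (q = 0.0525) in F2. Col6a4 and Col6a6 ranged from 0.62 to 1.52 CPM and were not called.

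Transmembrane collagens were led by Col25a1 (chr3:129883809-130302795 in mm9, plus strand), a neuronal chain found in amyloid plaques. It had 128 and 135 CPM (WT), 122 and 131 CPM (F1) and 181 and 155 CPM (F2). Both F2 libraries were above WT, and its log2 fold changes of -0.05 ± 0.12 (q = 0.817) in F1 and 0.35 ± 0.12 (q = 0.0242) in F2 did not pass the threshold. Per kilobase of exon it was second to Col4a2 among collagens in WT, at 14.2 CPM per kilobase against 16.8. In F2 it stood at 18.1 CPM per kilobase, above Col4a2 at 6.12. Col23a1 had 26.7 and 23.6 CPM (WT), 11.6 and 11.5 CPM (F1) and 17.01 and 13.4 CPM (F2). It was below WT in all 4 libraries, with log2 fold changes of -1.13 ± 0.17 (q = 4.61e-09) in F1 and -0.73 ± 0.17 (q = 0.000352) in F2, and the call in F2 was lost without WT replicate 1 or F2 replicate 2. Col13a1, a chain of the neuromuscular junction, ranged from 1.49 to 2.01 CPM, and Col17a1, a chain of hemidesmosomes, stayed under 0.4 CPM.

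Among the other chains, Col7a1, the anchoring fibril chain of skin, had 7.44 and 6.90 CPM (WT), 2.94 and 1.59 CPM (F1) and 1.53 and 3.12 CPM (F2). The log2 ratios to WT were -1.66 ± 0.33 (q = 2.4e-05) in F1 and -1.62 ± 0.33 (q = 4.67e-05) in F2, and without F2 replicate 1 the call in F2 was lost. Col28a1 stayed under 1 CPM and was not called. The short-chain collagens Col8a1 and Col8a2 ranged from 0.29 to 0.85 CPM. Col8a1 had log2 fold changes of 0.91 ± 0.47 (q = 0.186) in F1 and 1.13 ± 0.46 (q = 0.0631) in F2. Col4a3bp, which is no collagen, had 65.1 and 63.9 CPM (WT), 74.3 and 79.99 CPM (F1) and 85.2 and 77.3 CPM (F2), and its log2 fold changes were 0.26 ± 0.12 (q = 0.103) in F1 and 0.33 ± 0.12 (q = 0.0289) in F2.

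Cells that make much of the brain's collagen and laminin were compared through their markers. The 10 endothelial markers summed to 143 and 154 CPM (WT), 157 and 185 CPM (F1) and 196 and 183 CPM (F2). None of the 10 was lower and 1 was higher in F1 and 2 in F2. Of all tested genes, 8.54% were lower and 3.77% higher in F1, and 8.1% and 3.86% in F2. At such shares, lists as short as these may hold no lower gene. The 9 mural cell markers summed to 172 and 185 CPM (WT), 179.9 and 259 CPM (F1) and 237 and 221 CPM (F2); none was lower, and 0 were higher in F1 and 1 in F2. Sums for these vessel cells lay within or above the WT range in the libraries where the sum of Col4a1 and Col4a2 was 177 and 161 CPM (WT), 87.2 and 71.1 CPM (F1) and 68.7 and 73.1 CPM (F2). Astrocyte markers summed to 2413 and 2642 CPM (WT), 2956 and 3587 CPM (F1) and 4024 and 3357 CPM (F2), and 1 of 8 was higher in F1 and 5 in F2. Choroid plexus markers summed to 18.97 and 19.6 CPM (WT), 18.2 and 20.6 CPM (F1) and 23.1 and 23.4 CPM (F2). Oligodendrocyte markers summed to 1111 and 2014 CPM (WT), 3006 and 2263 CPM (F1) and 1553 and 2929 CPM (F2), those of their precursors to 121 and 133 CPM (WT), 186 and 189.6 CPM (F1) and 166 and 206 CPM (F2) and those of microglia to 105 and 109 CPM (WT), 126 and 146 CPM (F1) and 161 and 139 CPM (F2). Higher in F1 and F2 were 3 and 2 of 9 oligodendrocyte markers, 3 and 2 of 6 precursor markers and 0 and 3 of 7 microglia markers, and 0 of 5 tested choroid plexus markers in either. None of the tested markers on these 5 lists was lower in F1 or F2 at q under 0.01. The part of these markers in the results was not tested.

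**Figure D4:**
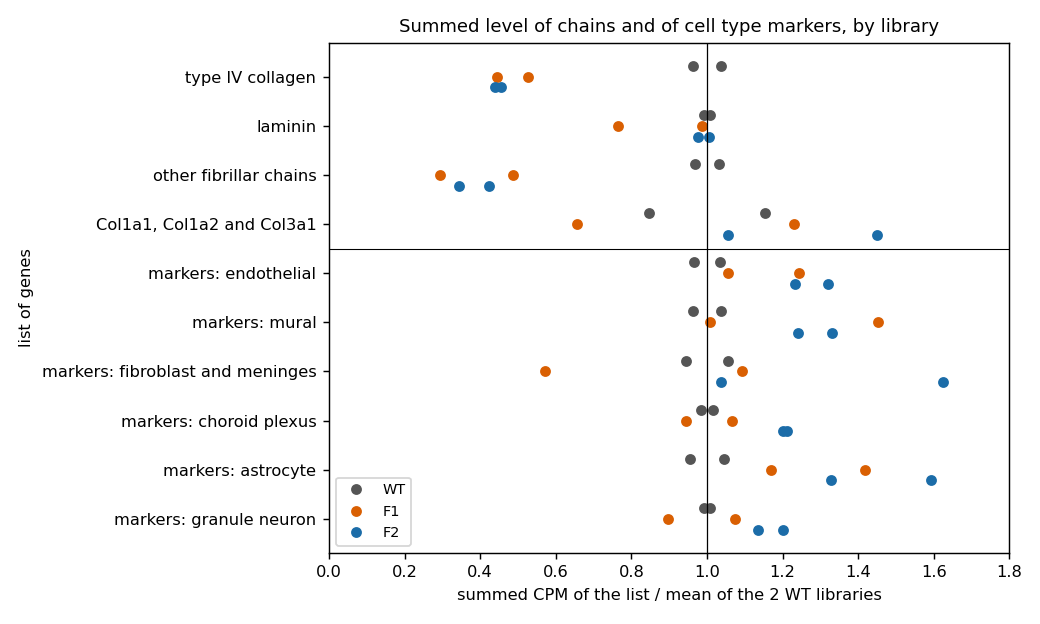
Summed CPM of 4 lists of chains (top) and 6 lists of cell type markers (bottom) in each library, divided by the mean of the 2 WT libraries (vertical line at 1). Type IV and the other fibrillar chains lie left of the line in all 4 F1 and F2 libraries, while endothelial and mural markers lie at or right of it.

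Partners and enzymes of the same matrix were read from lists, with 62 of 64 listed genes tested. In F1, 9 were lower and 3 higher, and in F2 10 were lower and 5 higher, against 8.54% lower and 3.77% higher of all tested genes in F1 and 8.1% and 3.86% in F2. These counts moved with single libraries: in place of 12 genes called in F1 in either direction, 6 were called without WT replicate 1 and 7 without F1 replicate 2. In place of 15 called in F2, 8 were called without WT replicate 1, 7 without F2 replicate 1 and 9 without F2 replicate 2.

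Of 13 basement membrane partners, 3 were lower and 1 higher in F1, and 2 lower and 1 higher in F2. Agrn, the heparan sulfate proteoglycan agrin, had 384 and 347 CPM (WT), 193 and 173 CPM (F1) and 186 and 189 CPM (F2). Against WT, log2 fold changes were -0.999 ± 0.12 (q = 1.82e-14) in F1 and -0.96 ± 0.12 (q = 2.02e-13) in F2. Pxdn, the peroxidase that crosslinks type IV collagen, had 113 and 109.9 CPM (WT), 80.5 and 63.4 CPM (F1) and 50.7 and 46.7 CPM (F2), and its log2 fold changes were -0.63 ± 0.13 (q = 5.21e-05) in F1 and -1.19 ± 0.13 (q = 4.49e-16) in F2. It was also lower in F2 than in F1 (q = 0.00496). Sparc, a collagen-binding protein, had 166 and 159 CPM (WT), 229 and 269.7 CPM (F1) and 249 and 246 CPM (F2), above WT in all 4 libraries, with log2 fold changes of 0.62 ± 0.12 (q = 1.12e-05) in F1 and 0.61 ± 0.12 (q = 1.82e-05) in F2. Fbln2, a laminin-binding fibulin, was called in F1 alone, at -1.09 ± 0.25 (q = 0.000352). The linkers between the type IV and laminin networks, Nid1, Nid2 and Hspg2, did not pass the test.

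Of 27 genes of collagen synthesis and crosslinking, 5 were lower in F1 and 6 in F2, and none was higher. Bmp1, the protease that removes the C-terminal propeptide of fibrillar procollagens, had 235 and 192 CPM (WT), 85.2 and 68.7 CPM (F1) and 93.5 and 81.04 CPM (F2). Its log2 fold changes were -1.47 ± 0.15 (q = 1.79e-20) in F1 and -1.29 ± 0.15 (q = 7.06e-16) in F2. Leprel2, a prolyl 3-hydroxylase, had 67.9 and 49.9 CPM (WT), 25.5 and 18.5 CPM (F1) and 18.3 and 19.7 CPM (F2), with log2 fold changes of -1.42 ± 0.18 (q = 1.45e-12) in F1 and -1.63 ± 0.18 (q = 4.87e-16) in F2. Lepre1, of the same family, had 18.7 and 15.8 CPM (WT), 10.9 and 9.07 CPM (F1) and 9.50 and 9.32 CPM (F2), with log2 fold changes of -0.79 ± 0.18 (q = 0.000252) in F1 and -0.88 ± 0.18 (q = 5.21e-05) in F2. P4ha2, a prolyl 4-hydroxylase subunit, was called in F2 alone, at -0.83 ± 0.22 (q = 0.00218). The chaperone Serpinh1 and the main enzymes P4ha1 and P4hb did not pass the test.

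Of 12 receptors tested, 1 was lower and 1 higher in F1, and 2 were lower and 3 higher in F2. Itga10, an integrin collagen receptor subunit, had 8.94 and 4.68 CPM (WT), 2.21 and 2.23 CPM (F1) and 1.98 and 2.08 CPM (F2). The log2 ratios to WT were -1.62 ± 0.31 (q = 7.88e-06) in F1 and -1.75 ± 0.31 (q = 1.82e-06) in F2. Itga7, a laminin receptor subunit, was lower in F2, at -0.92 ± 0.18 (q = 1.41e-05). Dag1, the precursor of dystroglycan, had 24.1 and 20.9 CPM (WT), 31.1 and 59.04 CPM (F1) and 54.4 and 42.3 CPM (F2), and its log2 fold changes were 1.000 ± 0.23 (q = 0.000413) in F1 and 1.10 ± 0.23 (q = 8.49e-05) in F2. Bcam, a receptor of laminin α5, was higher in F2, at 0.72 ± 0.19 (q = 0.00163). Of 10 proteases and inhibitors, Timp3, a matrix-bound metalloproteinase inhibitor, passed the test: it had 12.5 and 13.7 CPM (WT), 18.3 and 30.99 CPM (F1) and 35.5 and 25.1 CPM (F2), with log2 fold changes of 0.92 ± 0.23 (q = 0.00127) in F1 and 1.21 ± 0.23 (q = 8.92e-06) in F2.

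Collagen genes are split into many short exons, and the reads of 50 bases were counted where they lay within annotated exons or crossed known junctions. Over the 15144 other tested genes with an annotated protein-coding transcript, the share called lower than WT was larger with more exons. It was 4.38% in F1 and 4.14% in F2 for genes with 1 to 9 exons, 9.7% and 9.87% for 10 to 19, 14.4% and 14.3% for 20 to 39, and 20.1% and 17.0% for the 283 genes with at least 40. Collagen chains with at least 40 exons, 28 in number, were lower in 57.1% in F1 and 53.6% in F2, and the 11 with 20 to 39 exons in 27.3% in both. Laminin genes also have many exons, between 23 and 79, and no coding exon of 54 bases. Of the 4 laminin genes with at least 40 exons, 1 (25.0%) was lower in F1 and 0 in F2. The part of exon size in the difference from collagens was not tested.

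Read positions that lie within 1 exon made up 46.0% to 62.6% of the fibrillar transcripts, 62.9% to 71.5% of the type IV transcripts and 64.8% to 82.5% of the laminin transcripts. Ranges were 40.1% to 72.6% for FACIT, 64.4% to 79.5% for type VI and 42.9% to 80.0% for transmembrane chains. The lowest shares were those of Col16a1 (40.1%) and Col7a1 (43.1%), lower in F1 and F2, and of Col25a1 (42.9%) and Col13a1 (44.4%), not called by the exact test. Among other genes with under 65% of such positions, 16.3% were lower in F1 and 16.8% in F2. The correction for exon structure, chosen after seeing the data, took out the trend with this share and with exon number in a likelihood-ratio test over the 17421 genes, of which the 15197 with these values (all 53 members among them) were corrected. Without the correction, the likelihood-ratio test called 20 members in F1 and 19 in F2, every call of the exact test among them and Col27a1 in F2 besides. Members called higher with the correction were Col25a1, Lama2 and Lamc3 in F1, and Col25a1 and Lamc3 in F2. Log2 fold changes of Col4a2 were then -1.003 in F1 and -1.21 in F2, and those of Col5a1 -1.06 and -1.12. The size of the shift differed between genes. In F1, Col16a1 went from -1.35 by the exact test to -0.81 and Col11a2 from -1.27 to -0.78. Smaller shifts in F1 were those of Col6a3, from -1.78 to -1.64, and Col23a1, from -1.13 to -1.04. With the correction, the calls of Col11a1, Col27a1, Col6a5, Col7a1, Col9a3 and Lama5 in F1 were lost, and in F2 those of Col19a1, Col27a1 and Col6a1.

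**Figure D5:**
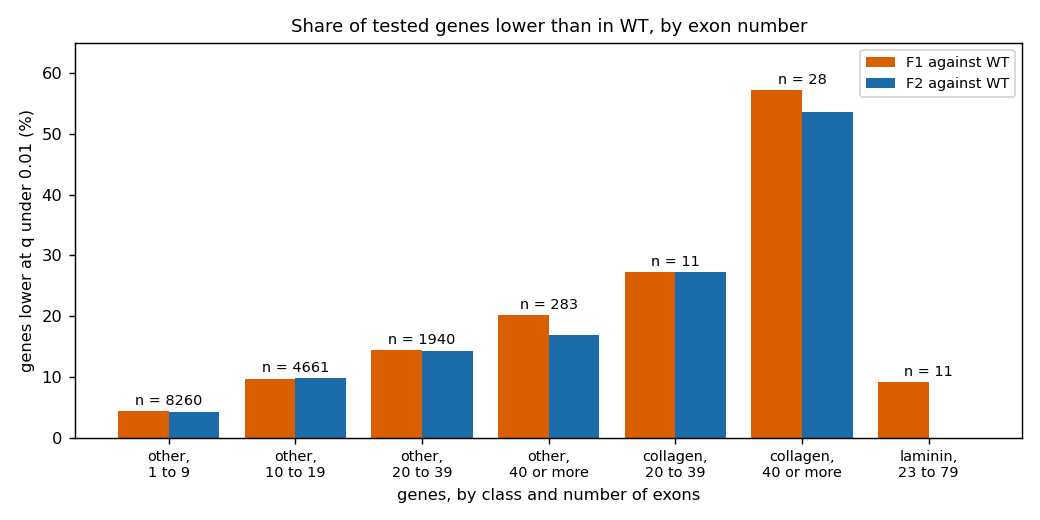
Share of tested genes lower than WT at q under 0.01 (vertical axis, percent) in F1 and F2, for other genes with a protein-coding transcript by number of exons, for collagen chains by number of exons and for laminin chains. Bars rise from 4.38% for other genes with few exons to 57.1% for collagen chains with at least 40 exons, while 1 laminin chain of 11 was lower in F1 and 0 in F2.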

How the data were processed

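The authors prepared RNA libraries with a kit that does not mark the strand, sequenced single-end reads of 50 bases, aligned them with TopHat to mm9 over known junctions only, and counted them with HTSeq in its intersection-strict mode. The deposited values are these raw counts per gene symbol, 1 table per library. Reads reaching beyond annotated exons are dropped in that mode, and reads of overlapping genes on opposite strands cannot be told apart. Bisulfite samples were not used here. The values of 1 tested member are not reported here, and it is kept in the counts and sums.

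Low counts were removed by filterByExpr, libraries were scaled by TMM, and groups were compared by the exact test of edgeR 4.0.16 (R 4.3.3), with common and tagwise dispersion over the 6 libraries, Benjamini-Hochberg adjustment over 17421 genes and a threshold of q under 0.01. The study names edgeR with tagwise dispersion, gives 0.01 in its results and 0.05 in its methods. The common dispersion was 0.0113, a coefficient of variation of 10.6% between libraries. Standard errors follow from mean counts and tagwise dispersion. Replicates were not duplicates: their chi-square per degree of freedom was 18.5 to 23. Replicate numbers did not pair libraries: differences between replicates 1 and 2 correlated at -0.0269 (WT and F1), -0.083 (WT and F2) and -0.182 (F1 and F2).

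The procedure was tested on simulated counts, drawn with the common dispersion for every gene. That run does not cover genes with a wider spread between libraries. Exons, lengths and positions come from GENCODE M1 on mm9, and levels per kilobase use its merged exon length. Members, gene lists and tests were chosen with earlier results of these data known. Full statistics are given for members called in any comparison and for the most abundant member of each class, and from each pathway list for at most 4 called genes with the largest change. Alternatives were the likelihood-ratio test and the quasi-likelihood test, both also run with a replicate block, DESeq2 1.42.0, other scalings, filters and thresholds, each library left out, and corrections for GC content and length. Chosen after seeing the data were the correction for exon structure and the block with F2 numbers crossed. Python 3.11.15, pandas 2.3.3 and matplotlib 3.10.9 were used for tables and plots.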

Additional observations from a re-analysis of the deposited data

How the results depend on the processing

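Over the alternatives, 15 to 23 members were called in F1 and 13 to 23 in F2. With the replicate block, which the labels' numbers do not back as a pairing, 19 members were called in F1 and 18 in F2 by the likelihood-ratio test and 16 and 16 by the quasi-likelihood test. Against the same tests without the block, which called 20 and 19 and then 16 and 17, the block ended the calls of Col9a3 in F1 and Col27a1 in F2 in the first and of Col19a1 in F2 in the second. With F2 numbers crossed in the block, 2 members were called between F2 and F1. Over all genes, 2144 were called in F1 and 2084 in F2, against 1029 and 997 by the quasi-likelihood test and 848 and 758 by that test with the replicate block. Leaving out 1 library at a time gave 15 to 23 members in F1, 13 to 22 in F2 and 0 to 5 between F2 and F1, and 6 to 12 pathway genes in F1 and 7 to 19 in F2. The exon structure correction turned the log2 fold change of Col25a1 in F1 to 0.40 with and without the replicate block, and that of Col9a3 in F2 to 0.094 without and 0.092 with it. Leaving out 1 library gave a range of -0.096 to 0.0077 for Col25a1 in F1 and of -1.80 to 0.0026 for Col6a1 in F1, the ends being without F1 replicate 2 and 1 for Col25a1 and without F1 replicate 1 and 2 for Col6a1. The cause was not tested. The correction for GC content and length, made within a likelihood-ratio test, moved the median of all genes to 0.082 in F1 and 0.060 in F2. Of its calls in F1, 1393 of 2877 were lower, against 1541 of 2253 by the likelihood-ratio test without the correction. The 19 listed basement membrane chains summed to means of 357 (WT), 232 (F1) and 242 (F2) CPM. Leaving out Col4a2 took the summed level of the tested chains among them to 245 (WT), 187 (F1) and 201 (F2) CPM. Of the values of single genes under the alternatives, 994 kept their direction and side of the threshold, 68 fell short of it, 24 newly passed it and 6 changed sign.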
